A study of Mus musculus with 8 samples.

Results

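The genes of the G2 and M phases of the cell cycle were followed across 8 microarrays of cultured mouse primary myoblasts. They are 33 genes listed by symbol, all of them measured, out of 19938 genes with a probe set that names a single gene. Where a gene had several probe sets the brightest on average stood for it, which concerned 1 member, Top2a. Of the arrays, 4 are labelled WT and 4 are labelled Runx1f/f, meaning floxed alleles of the transcription factor gene Runx1, and the treatment label calls the second genotype knockout. Both groups carry the C57bl/6 background and come from satellite cells of the gastrocnemius of mice aged 2 to 3 weeks, grown on Matrigel in proliferation medium. The labels number the arrays 1 to 4 in each genotype as biological replicates. The sources used here do not say whether animals were pooled, which Cre line was used or which part of Runx1 is floxed.

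Cells that divide raise the transcripts of G2/M genes late in the cycle, so that cyclin B, Cdk1 and the kinases, motors and kinetochore proteins of mitosis are made shortly before they are needed. In quiescent and G1 cells the DREAM complex keeps these promoters silent through a short element, the cell cycle homology region or CHR. Later in the cycle B-Myb and then Foxm1 are recruited through the MuvB core of the same complex, and NF-Y binds nearby CCAAT boxes. Myoblasts leave the cell cycle for good when they differentiate, and the G2/M genes are therefore commonly read as a measure of how much of a muscle culture is still dividing.

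Promoter windows of 6 members are shown to make the CHR and CCAAT letters visible in their place. The 33 members were listed without these letters, but the 6 shown were picked for them. RefSeq windows (GRCm38.p6) of 300 bases, from 250 before to 50 after the gene start, were held for 28 of the 33 members. The windows below belong to the 6 members with a CHR match and the largest difference between replicate numbers described further on. Capitals mark the CHR letters TTTGAA and the CCAAT box, each searched on both strands, so that TTCAAA and ATTGG are the same motifs on the other strand. In Cdca8 the capital run holds both motifs, which overlap there.
Ckap2l (chr2:129297163-129297462, minus strand): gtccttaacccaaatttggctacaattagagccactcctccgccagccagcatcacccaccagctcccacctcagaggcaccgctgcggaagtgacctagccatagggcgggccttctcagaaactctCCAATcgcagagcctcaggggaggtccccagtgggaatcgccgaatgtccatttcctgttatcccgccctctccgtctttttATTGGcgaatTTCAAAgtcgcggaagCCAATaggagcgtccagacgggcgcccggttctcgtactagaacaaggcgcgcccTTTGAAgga
Prc1 (chr7:80294201-80294500, plus strand): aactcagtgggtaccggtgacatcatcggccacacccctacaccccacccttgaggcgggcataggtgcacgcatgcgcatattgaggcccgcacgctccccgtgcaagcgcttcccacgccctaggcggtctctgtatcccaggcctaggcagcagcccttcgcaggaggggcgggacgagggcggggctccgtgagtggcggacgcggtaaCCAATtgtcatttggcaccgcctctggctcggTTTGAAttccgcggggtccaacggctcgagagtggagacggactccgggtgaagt
Ndc80 (chr17:71526808-71527107, minus strand): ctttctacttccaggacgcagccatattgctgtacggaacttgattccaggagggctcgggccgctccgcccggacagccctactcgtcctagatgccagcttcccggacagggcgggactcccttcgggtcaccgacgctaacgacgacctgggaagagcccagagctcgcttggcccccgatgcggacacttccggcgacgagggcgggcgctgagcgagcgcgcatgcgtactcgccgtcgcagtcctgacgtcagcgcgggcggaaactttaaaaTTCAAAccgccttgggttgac
Aurka (chr2:172370521-172370820, minus strand): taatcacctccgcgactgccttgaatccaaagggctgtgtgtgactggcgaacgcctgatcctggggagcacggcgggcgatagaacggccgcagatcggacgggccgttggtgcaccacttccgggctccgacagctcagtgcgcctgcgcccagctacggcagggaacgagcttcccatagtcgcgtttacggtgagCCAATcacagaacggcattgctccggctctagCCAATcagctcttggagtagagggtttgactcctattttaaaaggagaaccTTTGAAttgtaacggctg
Ttk (chr9:83834439-83834738, plus strand): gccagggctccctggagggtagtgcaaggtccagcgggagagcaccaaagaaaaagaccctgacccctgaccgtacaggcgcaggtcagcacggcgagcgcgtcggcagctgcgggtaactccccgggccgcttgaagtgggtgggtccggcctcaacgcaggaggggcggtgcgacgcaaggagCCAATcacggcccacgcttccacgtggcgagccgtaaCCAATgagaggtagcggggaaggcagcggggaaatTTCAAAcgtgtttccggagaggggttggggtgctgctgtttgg
Cdca8 (chr4:124936868-124937167, minus strand): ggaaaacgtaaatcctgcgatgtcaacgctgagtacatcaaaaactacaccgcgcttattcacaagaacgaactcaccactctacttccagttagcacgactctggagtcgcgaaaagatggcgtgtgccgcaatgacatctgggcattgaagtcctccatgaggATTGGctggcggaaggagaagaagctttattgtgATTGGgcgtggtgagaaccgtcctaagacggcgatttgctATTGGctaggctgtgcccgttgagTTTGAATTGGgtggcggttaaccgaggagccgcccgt

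A CHR match was present in 22 of 28 members with a window (78.6%), against 20.2% of 27025 RefSeq genes and 17.9% of 32851 windows. Within 50 bases of the start the match was present in 20 of 28 members (71.4%) and in 5.72% of all genes. A CCAAT box was present in 21 of 28 members (75.0%) and in 41.1% of all genes, and 19 members held both motifs. Birc5, Mybl2, Nuf2 and Nusap1 held neither. Of neighbouring CCAAT boxes in the same window, 8 of 33 pairs lay 30 to 35 bases apart, among them those of Ccnb2, Cdk1, Aurka, Hmmr and Cdca3. A match describes the letters of the window and is not evidence of a bound factor.

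**Figure D1:**
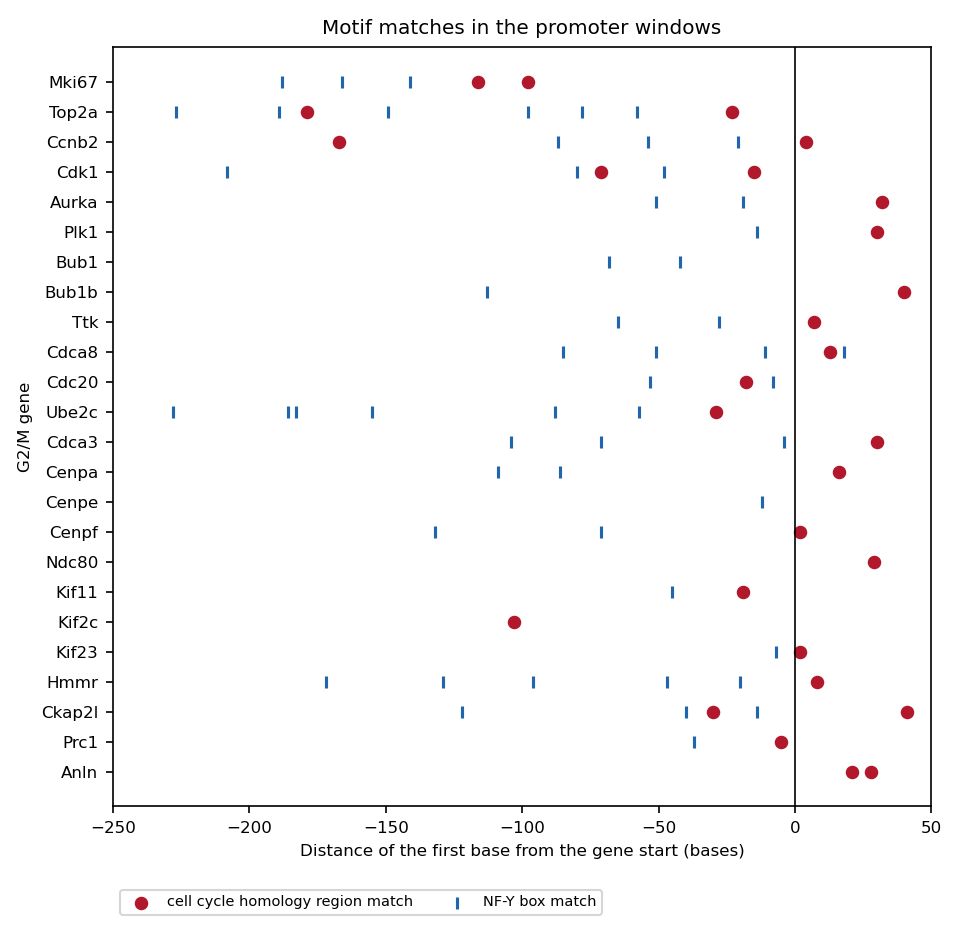
Positions of motif matches in the promoter windows of the 24 G2/M genes that hold at least 1 match, as the distance in bases of the first base of the match from the gene start (0), with 1 row a gene. Circles are matches to the cell cycle homology region and bars are matches to the NF-Y box. Most circles lie close to the start, with 20 of 28 members having 1 within 50 bases, while the bars lie mostly before it.

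Several properties of the deposited table bear on every value below. In all 35399 rows, the mean over the 4 columns labelled WT, the mean over Runx1f/f 1 and 2 and the mean over Runx1f/f 3 and 4 were equal within 7.5e-05, and the 8 columns carried 5 components with variance. A member read above its mean in Runx1f/f 1 therefore reads below it by the same amount in Runx1f/f 2, and likewise in 3 and 4, so these columns are not independent arrays. Runx1 read 9.99 and 10.27 in WT 2 and 3 and 9.98 and 9.89 in Runx1f/f 2 and 3, against 9.15 to 9.44 in the 4 arrays numbered 1 and 4, with no difference between the labelled genotypes. The equal means force that for Runx1 as for every other row, so Runx1 is no check of the labels here, and whether its probe set lies in a deleted part was not stated.

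Which array each column holds is itself in doubt. The source numbers in the labels are 139, 142, 160 and 189 for WT 1 to 4 and 140, 141, 161 and 181 for Runx1f/f 1 to 4. In rising order they form runs of 4 (139 to 142), 2 (160 and 161) and 2 (181 and 189), the same sizes, in the same order, as the column sets with equal means. If the columns stood in the order of the source numbers and not in that of the labels, the columns numbered 2 and 3 here would be the 4 Runx1f/f arrays and those numbered 1 and 4 the 4 WT arrays. The labels are used as given, and the files used here do not settle which order holds. Every difference between numbers 2 and 3 and numbers 1 and 4 below carries this doubt. Array medians lay between 4.39 and 4.41, and no pair of arrays held identical values. The myoblast genes Myod1 and Des read between 11.12 and 11.57 on all arrays, and the 6 myoblast markers had means of 7.07 to 11.35. The leukocyte and endothelial markers stayed at medians of 3.49 to 3.60. Among the fibroblast and pericyte markers, Col1a2 read 9.13 to 10.39 and Rgs5 7.89 to 8.96, while the others had means of 3.47 to 4.66.

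Between the labelled genotypes no G2/M gene was called, and the equal means fix that outcome. Of 33 members 0 were called by limma (Benjamini-Hochberg adjusted p under 0.05), where 0% of 19938 genes were called and 0 genes had an unadjusted p under 0.05. The largest difference of a member was 5e-06, which is rounding, while the SD between arrays of a genotype ran from 0.05 to 0.31. This comparison cannot show whether loss of Runx1 changes these genes.

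The members did vary between the arrays of each label. In arrays numbered 2 and 3, of both labels, the G2/M genes were lower than in arrays numbered 1 and 4. The median difference was -0.16 on the log2 scale, or 1.12-fold, against -0.01 over all genes. On average 31 of 33 members were lower in numbers 2 and 3, as were 52.8% of all genes. In 15 of 33 members all 4 arrays numbered 2 and 3 lay below all 4 arrays numbered 1 and 4, which held for 10.5% of all genes, and 0 members had the opposite order, which held for 9.87%. This grouping of the arrays was proposed after their leading component had been seen, so all its values are given as a description, with no p-value. Any SD or standard error over arrays treats them as independent. The labels as given attach no condition to the numbers 2 and 3, apart from the doubt about the column order.

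**Figure D2:**
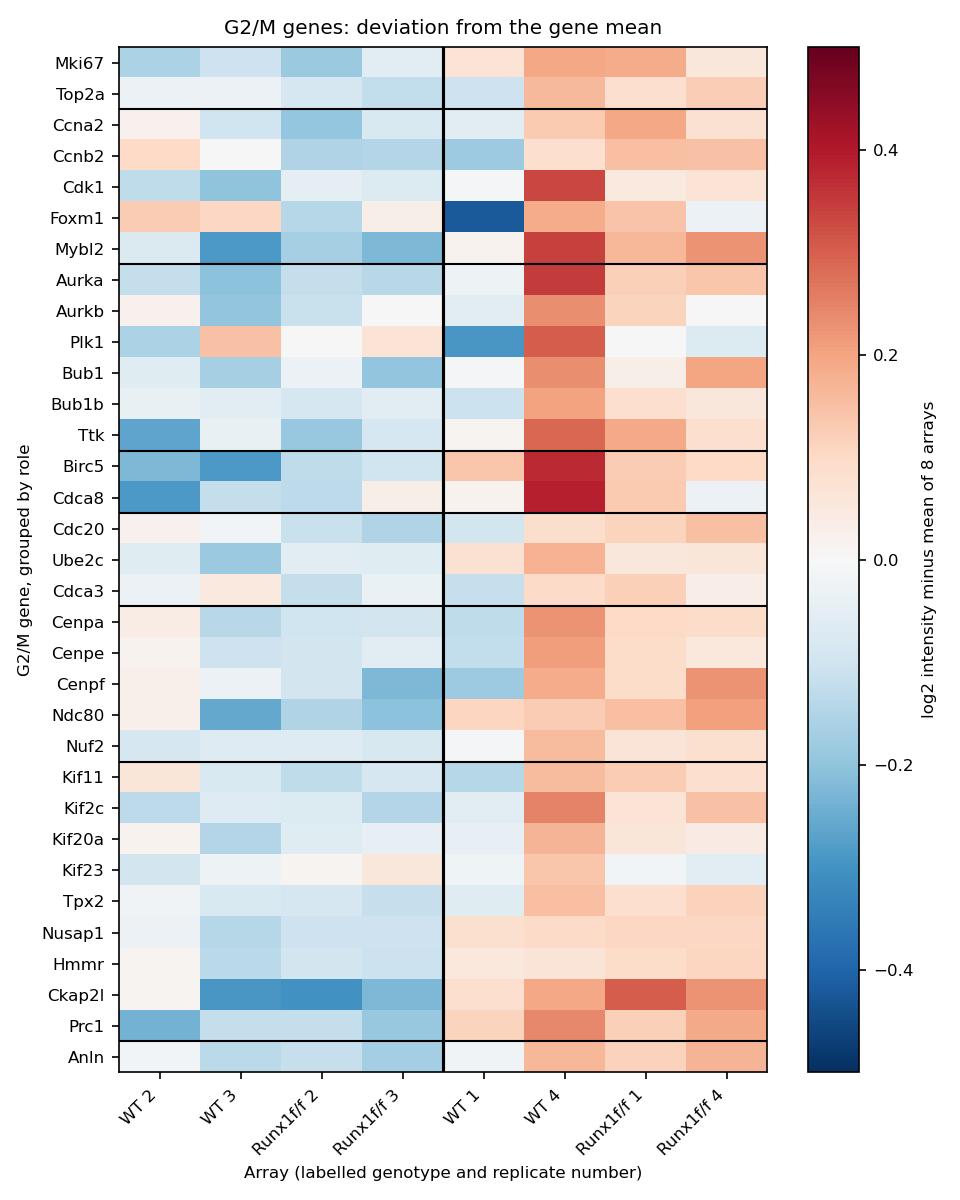
Log2 intensity of each of the 33 G2/M genes on each array minus the mean of that gene over the 8 arrays, on a colour scale from blue (lower) to red (higher). Rows are grouped by role with lines between groups, and the 4 arrays to the left of the vertical line are numbers 2 and 3. WT 4 was above the mean in all 33 genes, while WT 1 was above it in 11.

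Differences were small for each gene. Over the 8 arrays the range of a member ran from 0.23 to 0.68 with a median of 0.38, and the median range over all genes was 0.25. Of the 33, 7 members were lower in numbers 2 and 3 by over 1.2-fold, where 5.13% of all genes were, and 0 were higher by that much, where 6.35% were. Past 1.5-fold, 0 members were lower and 0 higher, where 0.838% and 2.32% of all genes were. A mean log2 intensity of at least 6 was reached by 32 of 33 members and by 7266 of all genes, and among those 7266 brighter genes the share with numbers 2 and 3 all lower was 17.3%. Foxm1 was the member below that level, with a mean of 5.50.

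The arrays did not contribute alike. WT 4 was above the gene mean in 33 of 33 members and was the highest of all 8 arrays in 23, where 15.5% of all genes had WT 4 as the highest. Runx1f/f 1 was above the mean in 31 members and Runx1f/f 4 in 28, and the mirrored Runx1f/f 2 and 3 were above it in 2 and 5. WT 3 was above the mean in 4 members and WT 2 in 13. WT 1, the remaining array among numbers 1 and 4, was above the mean in 11 members and below it in 22. In 53.5% of all genes it was below the mean. It was the lowest of all arrays in 6 of 33 members and in 3431 of 19938 genes, a similar share. WT 4 exceeded WT 1 in 33 of 33 members, by a median of 0.24 and a range of 0.01 to 0.61, while the median of that difference over all genes was 0.01.

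WT 1 thus divided the members. Of the 18 members whose sets of arrays overlapped, 11 did so only because WT 1 was not above every array numbered 2 and 3. With WT 1 left out, 26 of 33 members had numbers 2 and 3 all lower, and the median difference was -0.20. That order then held for 14.2% of all genes and for 22.2% of genes with a mean of at least 6. The 11 members in which WT 1 was above the gene mean were Mki67, Mybl2, Ttk, Birc5, Cdca8, Ube2c, Ndc80, Nusap1, Hmmr, Ckap2l and Prc1. Cdca8 was the only one of these 11 whose sets overlapped.

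Mki67 and Top2a came first by role. Mki67 encodes Ki-67, the nuclear protein that coats mitotic chromosomes and marks dividing cells. It read 8.30, 8.08, 8.13, 8.43 across the arrays labelled WT, by number, against 8.42, 8.05, 8.18, 8.29 across those labelled Runx1f/f. Numbers 2 and 3 lay between 8.05 and 8.18 and did not overlap with numbers 1 and 4, and the difference was -0.25 or 1.19-fold. Top2a, the topoisomerase that untangles chromosomes, read 9.09, 9.17, 9.17, 9.36 across the arrays labelled WT, by number, against 9.28, 9.11, 9.07, 9.32 across those labelled Runx1f/f. Its sets overlapped through WT 1 alone, and the difference was -0.13. The Top2a difference and overlap depend on the probe set chosen: with the mean of all its probe sets the difference was -0.21, and the sets did not overlap.

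Of 5 regulators of entry into mitosis, 2 had numbers 2 and 3 all lower. That order held for 10.5% of all genes and for 17.3% of genes with a mean of at least 6. Both shares also apply to the counts of the other role groups. Mybl2, which encodes B-Myb, read 6.51, 6.42, 6.21, 6.84 across the arrays labelled WT, by number, against 6.66, 6.33, 6.27, 6.72 across those labelled Runx1f/f. Its means were 6.31 ± 0.09 (SD, n = 4) in numbers 2 and 3 and 6.68 ± 0.14 (SD, n = 4) in numbers 1 and 4, a difference of -0.38 or 1.3-fold, with no overlap. Cdk1, the kinase that drives mitosis, read 8.74, 8.62, 8.55, 9.09 across the arrays labelled WT, by number, against 8.80, 8.70, 8.68, 8.82 across those labelled Runx1f/f. WT 4 was the highest of its arrays, and the sets did not overlap, with a difference of -0.22. Ccna2, the cyclin of S and G2 phase, read 8.79, 8.87, 8.75, 8.98 across the arrays labelled WT, by number, against 9.04, 8.65, 8.77, 8.92 across those labelled Runx1f/f, and WT 1 alone broke the order. Ccnb2, a B-type partner of Cdk1, differed by -0.10, and it differed in sign between the labels, with 0.10 in the WT arrays and -0.29 in the Runx1f/f arrays. Foxm1, the forkhead factor that activates many of the other members, had a difference of 0.06 and read 5.08, 5.63, 5.61, 5.69 across the arrays labelled WT, by number, against 5.64, 5.36, 5.53, 5.47 across those labelled Runx1f/f. WT 1 stood below its other 7 arrays, and without WT 1 the Foxm1 difference was -0.07.

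Among the mitotic kinases, 3 of 6 had numbers 2 and 3 all lower (10.5% of all genes). Aurka, the centrosomal Aurora kinase, read 8.40, 8.30, 8.21, 8.77 across the arrays labelled WT, by number, against 8.54, 8.30, 8.28, 8.56 across those labelled Runx1f/f. Its means were 8.27 ± 0.04 (SD, n = 4) in numbers 2 and 3 and 8.57 ± 0.15 (SD, n = 4) in numbers 1 and 4, a difference of -0.29. Ttk, the Mps1 kinase of the spindle checkpoint, read 6.33, 6.05, 6.28, 6.60 across the arrays labelled WT, by number, against 6.51, 6.13, 6.23, 6.40 across those labelled Runx1f/f, a difference of -0.29 with no overlap. Bub1, another checkpoint kinase, differed by -0.23 without overlap, and the differences in the WT and the Runx1f/f arrays were both -0.23. Its relative Bub1b, which delays anaphase, differed by -0.12 and overlapped through WT 1 alone. Aurkb, the Aurora kinase of the chromosomal passenger complex, differed by -0.14 and overlapped through WT 1 and Runx1f/f 4. Plk1, the polo kinase, went with neither set and read 8.01, 8.14, 8.45, 8.61 across the arrays labelled WT, by number, against 8.30, 8.30, 8.37, 8.24 across those labelled Runx1f/f. It was high in WT 4 and WT 3, low in WT 1, and its difference was 0.03.

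Birc5 and Cdca8, partners of Aurkb in the passenger complex, had WT 4 as the highest array. Birc5, which encodes survivin, read 6.71, 6.35, 6.28, 6.94 across the arrays labelled WT, by number, against 6.70, 6.44, 6.47, 6.67 across those labelled Runx1f/f. Its sets were separated by 0.20, and the means were 6.39 ± 0.09 (SD, n = 4) in numbers 2 and 3 and 6.75 ± 0.13 (SD, n = 4) in numbers 1 and 4, a difference of -0.37 or 1.29-fold. Cdca8, which encodes borealin, read 6.95, 6.64, 6.81, 7.32 across the arrays labelled WT, by number, against 7.06, 6.80, 6.96, 6.90 across those labelled Runx1f/f. The difference was -0.25, it was -0.41 in the WT arrays and -0.10 in the Runx1f/f arrays, and the sets overlapped.

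Of 3 genes around the anaphase promoting complex, the ligase that ends mitosis, 1 had numbers 2 and 3 all lower (10.5% of all genes). Ube2c, its ubiquitin-conjugating enzyme, read 7.45, 7.31, 7.19, 7.55 across the arrays labelled WT, by number, against 7.43, 7.32, 7.32, 7.43 across those labelled Runx1f/f. The sets were separated by 0.11, with a difference of -0.18. Cdc20, the activator that presents substrates to the ligase, differed by -0.13, which came from the Runx1f/f arrays (-0.26) and not from the WT arrays (0.0046). Cdca3, itself a substrate of the ligase, differed by -0.07, with 0.02 in the WT arrays and -0.15 in the Runx1f/f arrays.

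At the kinetochore, the structure that ties chromosomes to the spindle, all 5 members were lower on average in numbers 2 and 3 and 2 did not overlap (10.5% of all genes). Ndc80, a subunit of the complex that binds microtubules, read 6.58, 6.49, 6.21, 6.60 across the arrays labelled WT, by number, against 6.62, 6.32, 6.26, 6.68 across those labelled Runx1f/f. The arrays numbered 1 and 4 lay within 6.58 to 6.68, and the difference was -0.30 or 1.23-fold. Nuf2, its partner subunit, read 9.15, 9.07, 9.09, 9.31 across the arrays labelled WT, by number, against 9.22, 9.09, 9.07, 9.23 across those labelled Runx1f/f, a smaller difference of -0.15 over arrays that varied little. Cenpa, the centromeric histone H3 variant, differed by -0.15, Cenpe, a kinetochore motor, by -0.12, and Cenpf, a large kinetochore protein, by -0.16. All of the latter overlapped through WT 1 alone.

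Of 9 spindle motors and microtubule proteins, 9 were lower on average and 5 did not overlap (10.5% of all genes). Ckap2l, a spindle protein, had the largest difference of all members and read 7.07, 7.003, 6.70, 7.18 across the arrays labelled WT, by number, against 7.29, 6.69, 6.76, 7.22 across those labelled Runx1f/f. Its means were 6.79 ± 0.15 (SD, n = 4) in numbers 2 and 3 and 7.19 ± 0.09 (SD, n = 4) in numbers 1 and 4, a difference of -0.40 or 1.32-fold. WT 2 was the array numbered 2 or 3 nearest to numbers 1 and 4, and the difference was -0.28 in the WT arrays and -0.53 in the Runx1f/f arrays.

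Prc1, which bundles the microtubules of the central spindle, had the widest gap between its sets, 0.23. It read 8.35, 8.001, 8.12, 8.48 across the arrays labelled WT, by number, against 8.36, 8.12, 8.05, 8.43 across those labelled Runx1f/f, a difference of -0.33 or 1.26-fold that was -0.35 in the WT and -0.31 in the Runx1f/f arrays. Nusap1 and Hmmr, which bind spindle microtubules, had small differences of -0.19 and -0.16. Their arrays numbered 1 and 4 were even (SD 0.01 and 0.02), those numbered 2 and 3 less so (SD 0.05 and 0.07). Nusap1 read 6.63, 6.52, 6.41, 6.65 across the arrays labelled WT, by number, against 6.66, 6.45, 6.45, 6.66 across those labelled Runx1f/f, so that its 4 arrays numbered 1 and 4 spread by an SD of 0.01. In both genes WT 1 and WT 4 were alike, unlike in most members.

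Kif2c, a motor that takes microtubules apart, was the member nearest to overlapping among the 15, with a gap of 0.01 and a difference of -0.21. Just outside was Anln, the cytokinesis scaffold anillin, where the highest array numbered 2 or 3 and WT 1 were both at 8.82 and the difference was -0.22. Kif11, the motor that separates the spindle poles, Kif20a, a motor of late mitosis, and Tpx2, the activator of Aurora A, differed by -0.11, -0.12 and -0.15 and overlapped through WT 1 alone. Kif23, a motor of the central spindle, differed by -0.02, with -0.12 in the WT and 0.07 in the Runx1f/f arrays.

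**Figure D3:**
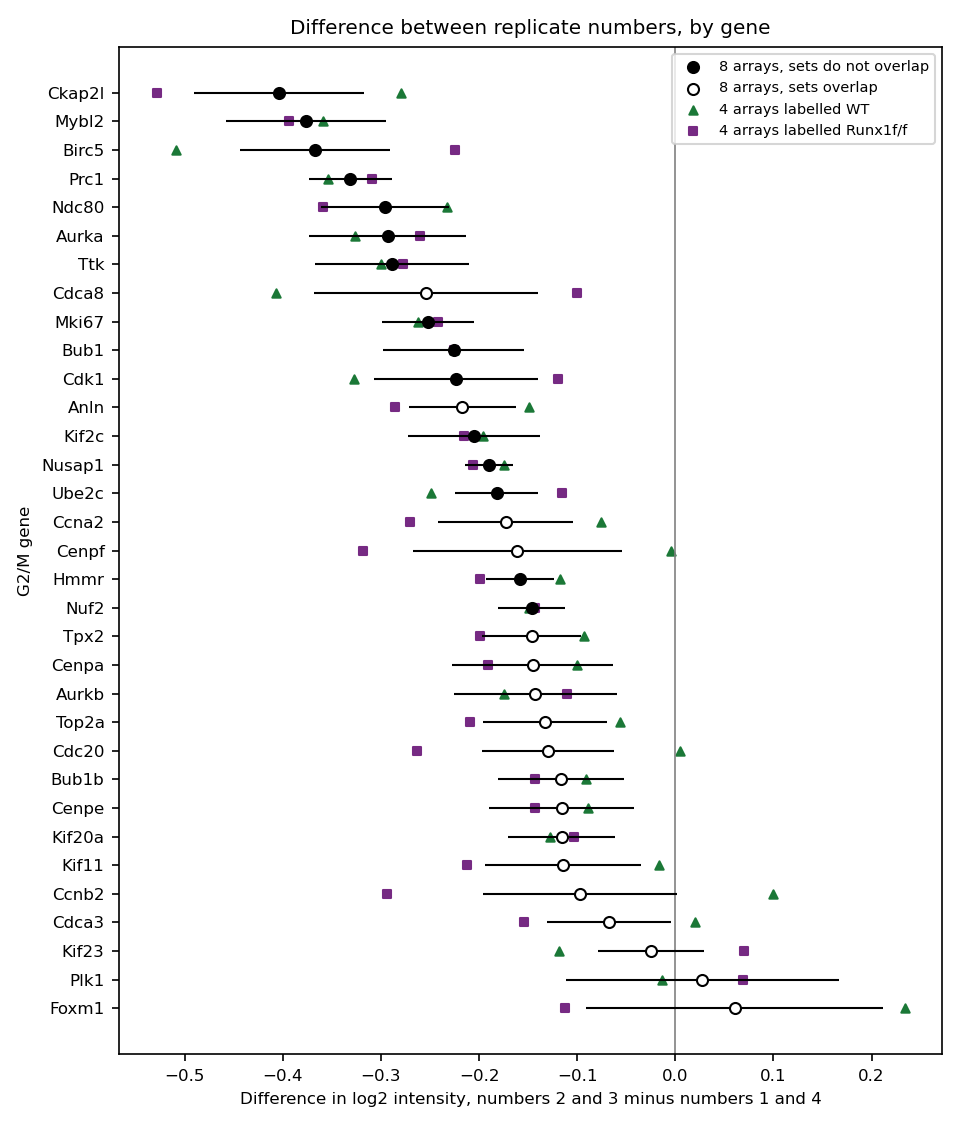
Difference in log2 intensity between arrays numbered 2 and 3 and arrays numbered 1 and 4 for each of the 33 G2/M genes, with circles for all 8 arrays (filled where the sets do not overlap) and lines of 1 standard error that treats the 4 arrays of a set as independent. Triangles and squares give the same difference within the 4 arrays labelled WT and the 4 labelled Runx1f/f. Circles run from -0.40 in Ckap2l to 0.06 in Foxm1, and 31 of 33 lie below 0.

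Within the labels the median difference was negative in both, but the WT arrays were uneven. The members' median deviation was 0.19 in WT 4 and -0.11 in WT 3, but -0.02 in WT 1 and -0.03 in WT 2. In the WT arrays the median difference of the members was -0.15, and in 17 of 33 both arrays 2 and 3 were below both arrays 1 and 4, against 23.3% of all genes. In the Runx1f/f arrays the median was -0.21, and 28 of 33 were in that order, against 33.3% of all genes, while Plk1 and Kif23 had the opposite one, as did 25% of all genes. With mirrored columns the Runx1f/f arrays separate whenever both pairs point the same way, so these shares are high by construction. In the WT arrays 4 members, Foxm1, Ccnb2, Cdca3 and Cdc20, were not lower on average in numbers 2 and 3.

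Members with and without the CHR letters are given side by side, with no test of the difference. The 22 with a match had a median difference of -0.17, and 10 of them did not overlap. Over all genes, 10.5% were lower without overlap, a share that stands beside each count here. The 6 without one had a median of -0.21, and 5 of them did not overlap. The 4 with neither motif, Birc5, Mybl2, Nuf2 and Nusap1, ran from -0.38 to -0.15, and none of them overlapped. The 5 members with no window, Ccna2, Foxm1, Aurkb, Kif20a and Tpx2, had a median of -0.14. Of these 5, 0 were without overlap.

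Further G2/M genes that are not among the 33 were lower in numbers 2 and 3 as well. Of 84 measured genes of this kind, 78 were lower on average (52.8% of all genes), 31 did not overlap in that direction (10.5%) and 1 in the other (9.87%), and the median difference was -0.16. WT 4 was the highest array in 56 of the 84, against 15.5% of all genes. The widest differences were in opposite directions and both belonged to the switch that controls Cdk1. Wee1, the kinase that inhibits Cdk1, read 8.59, 7.63, 7.36, 8.58 across the arrays labelled WT, by number, against 8.24, 7.84, 7.77, 8.31 across those labelled Runx1f/f, a difference of -0.78. Cdc25b, a phosphatase that activates Cdk1, read 7.36, 7.94, 8.41, 7.44 across the arrays labelled WT, by number, against 7.71, 7.87, 8.52, 7.06 across those labelled Runx1f/f, a difference of 0.79, and was the only one of the 84 with all arrays numbered 2 and 3 higher. Fbxo5, the inhibitor of the anaphase promoting complex, and Pimreg differed by -0.48 and -0.44 without overlap. In this list 55.2% of 67 genes with a window held a CHR match.

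**Figure D4:**
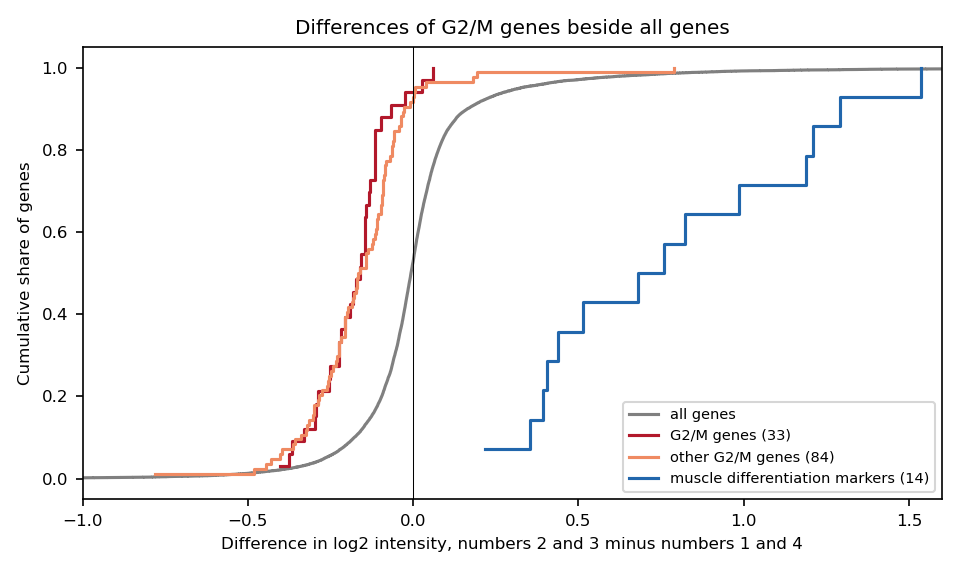
Cumulative share of genes (y axis, 0 to 1) by their difference in log2 intensity between numbers 2 and 3 and numbers 1 and 4 (x axis, shown from -1 to 1.6), for all genes, the 33 G2/M genes, 84 other G2/M genes and 14 muscle differentiation markers. Medians are -0.01, -0.16, -0.16 and 0.72.

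The factors that govern these promoters were mixed. Their list of 22 held DREAM, E2F and NF-Y genes and also Fzr1, an activator of the anaphase promoting complex (-0.03, with overlap). Its median difference was -0.06, with 5 genes lower and 3 higher without overlap, against 10.5% and 9.87% of all genes. Rb1, the retinoblastoma protein that restrains E2F, read 8.54, 9.26, 9.27, 8.36 across the arrays labelled WT, by number, against 8.32, 9.39, 9.14, 8.57 across those labelled Runx1f/f, a difference of 0.82. E2f1, an activating E2F, read 6.06, 5.71, 5.73, 5.99 across the arrays labelled WT, by number, against 6.20, 5.55, 5.67, 6.07 across those labelled Runx1f/f, a difference of -0.42. Rbl1, the p107 relative of Rb1, differed by -0.27, and Rbbp4, a subunit of the MuvB core, by 0.27. All 4 had sets that did not overlap.

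Other genes differed between the same sets of arrays by larger amounts. All 14 muscle differentiation markers were higher on average in numbers 2 and 3, 12 of them without overlap (9.87% of all genes), with a median difference of 0.72 and a range of 0.22 to 1.54. Mybpc1, a thick filament protein, read 8.55, 9.79, 9.74, 8.08 across the arrays labelled WT, by number, against 7.79, 10.29, 9.41, 8.66 across those labelled Runx1f/f. Mef2c, a factor of differentiating muscle, Cav3, the muscle caveolin, and Myh8, a perinatal myosin, differed by 1.29, 1.21 and 1.19. Among the 4 arrays numbered 1 and 4, the median deviation of the differentiation markers was -0.62 in Runx1f/f 1, -0.40 in WT 4, -0.15 in WT 1 and -0.13 in Runx1f/f 4, and that of the G2/M genes was 0.11, 0.19, -0.02 and 0.09 in the same order. Cdkn1c, which encodes the Cdk inhibitor p57, differed by 3.90. Of 7 measured genes named as Cdk inhibitors, it was the only one without overlap (9.87% of all genes were higher in this way). Cdkn1a, also listed, was not measured. Cdkn3, named as an inhibitor although it encodes a phosphatase, differed by -0.18. Cdkn2c and Cdkn2a differed by 0.10 and 0.08.

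Markers of myoblasts and of other cell types are given beside these values, and the shares of all genes without overlap were 10.5% lower and 9.87% higher. Myf5, a myogenic factor of undifferentiated myoblasts, read 8.51, 7.66, 7.54, 8.71 across the arrays labelled WT, by number, against 8.67, 7.54, 7.90, 8.31 across those labelled Runx1f/f, a difference of -0.89. Myod1, Cdh15 and Des differed by -0.26, 0.25 and 0.18, with 2 of 6 myoblast markers lower and 2 higher without overlap. Of 6 fibroblast markers 0 were without overlap. The list medians were 3.72 to 4.02 over the arrays, but Col1a2 was bright, with a mean of 9.77. Col1a2, Thy1, Col1a1 and Pdgfra differed by -0.28, -0.22, 0.14 and 0.06. The pericyte markers Cspg4 and Pdgfrb differed by 0.72 and 0.59, higher without overlap, with Rgs5 at -0.49 and Myh11 at -0.03. Cspg4 and Pdgfrb were dim, with means of 4.66 and 3.79, and Rgs5 had a mean of 8.51. Leukocyte markers were lower without overlap in 0 and higher in 1 of 7 (Csf1r, 0.08, with Cd68 at 0.13, Ptprc at -0.06 and Adgre1 at -0.06), and endothelial ones lower in 2 and higher in 1 of 5 (Pecam1, -0.19, Tek, -0.14, and Kdr, 0.06, with Cldn5 at 0.03). The part of the differentiation markers, of p57 or of a changed mix of cells in the G2/M values was not tested. In such bulk samples, fewer dividing cells and less G2/M transcript in each cell cannot be told apart.

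**Figure D5:**
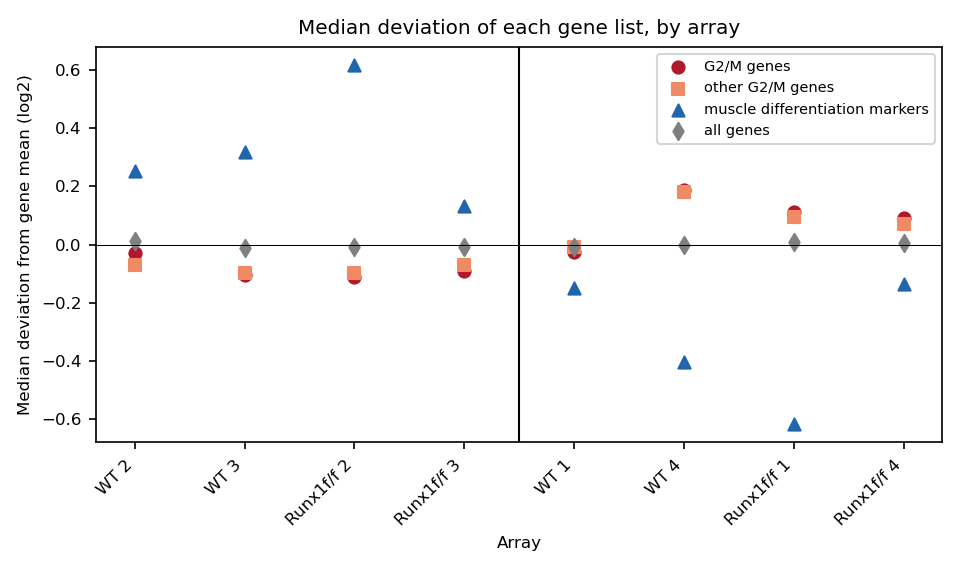
Median deviation from the gene mean (log2) of the G2/M genes, the other G2/M genes, the muscle differentiation markers and all genes on each of the 8 arrays, with numbers 2 and 3 to the left of the vertical line. The 33 G2/M genes lay between -0.11 (Runx1f/f 2) and 0.19 (WT 4), the differentiation markers between -0.62 (Runx1f/f 1) and 0.62 (Runx1f/f 2).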

How the data were processed

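Total RNA (200 ng per array) was hybridized to Affymetrix MoGene 1.0 ST arrays, per the labels' protocols and the series design. The deposited values are log2 intensities, 1 per probe set and array, made by the authors with RMA and Partek, per the submitters' processing notes, which give no versions. RMA corrects background, quantile-normalizes the arrays and summarizes probe sets. No source used here records the step that made the column set means equal, nor whether the columns follow the labels or the source numbers. The labels were used as given. Detection values were not used here, and the number of arrays limits the precision. Columns were assigned by the accession in their header.

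Gene symbols came from the annotation of the array platform, and of 35399 rows, 21789 had 1 gene symbol, 1621 had several and 11989 were not annotated. The gene with several probe sets was represented by the brightest. The test between labelled genotypes was limma's moderated one (version 3.58.1, R 4.3.3, two-sided, Benjamini-Hochberg over 19938 genes, threshold 0.05). It was checked on simulated independent arrays without equal column set means, so the check does not cover the deposited columns. Differences between replicate numbers, their folds (1.2 and 1.5) and counts of sets without overlap were computed in Python 3.11.15 with no test. An array deviation is its log2 intensity minus the mean of that gene over 8 arrays. Of the listed genes, 84 of the further G2/M genes, 22 of the DREAM and E2F list and 7 named as Cdk inhibitors were measured. All 33 members matched a RefSeq gene (GRCm38.p6).

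The members and lists were chosen with earlier results of these data known. Named are all 33 members, Runx1, and from each other list up to 4 genes with the largest absolute difference between replicate numbers. Promoters shown follow a rule of a CHR match and the largest difference. The gene with 2 windows, Prc1, is shown by the one listed first. The replicate numbers occur in both genotypes. Same-numbered arrays deviated together from the means of their labels (correlations 0.39, 0.46, 0.60 and 0.57), so 1 alternative fit took the number as a block. The labels do not state that the numbers pair samples, and the mirrored columns make these values dependent. Where nothing states separate animals, p-values measure only the spread between these samples. Alternatives were a dim-gene filter, centring, a second quantile normalization, all rows or all probe sets, an intensity trend, blocks, medians, 1 label at a time and each array left out.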

Additional observations from a re-analysis of the deposited data

Results flagged for a closer look

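Foxm1 in WT 1 stood apart from the other arrays labelled WT, at 5.08 against 5.61 in the nearest. The median of the leukocyte markers was 3.60 in WT 2 and 3.52 in the nearest array labelled WT. Foxm1 and the leukocyte median were 2 marks among 86 groups of 4 values checked (43 in each label), and chance marks about 1 in 20 groups of independent values. In the 33 members labelled Runx1f/f the equal means make the values symmetric, so that no array can be marked. Kif23 is listed for another reason, opposite directions in the labels. It was lower in numbers 2 and 3 in the WT arrays, by a difference of -0.12, and higher in the Runx1f/f arrays, by 0.07, with both arrays of a number set on the same side each time. The difference between the labels was not tested.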

How the results depend on the processing

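The count of genes called between the labelled genotypes was 0 with the replicate block, with a block for the source number runs, after centring or repeated quantile normalization, with the dim filter, over all rows, with an intensity trend and without any 1 array (0 to 0). The equal means fix most of these counts, which say nothing about stability, and the replicate block changed no other call. The count of 15 members without overlap became 30 in the Runx1f/f arrays alone (2 of them higher), 5 when a gap of at least 0.1 was asked for, and 15 to 26 with 1 array left out, 26 being the value without WT 1. It was 16 after centring, after quantile normalization and with the mean of all probe sets. The members' median difference kept its direction, from -0.20 to -0.15 with 1 array left out and from -0.21 to -0.15 under the other settings. For the other G2/M genes it was -0.18 to -0.12 with 1 array left out. Of 462 values of single members under 14 alternatives, 448 moved by less than 1 SD between arrays and 14 by more, all 14 in the arrays of 1 label, and 12 values of 6 members (Ccnb2, Foxm1, Plk1, Cdc20, Cdca3 and Kif23) changed sign. As added alternatives, chosen after seeing the data, centring and quantile normalization gave 23 and 22 members with WT 4 highest and a median of 0.72 and 0.71 for the differentiation markers, which was 0.77 without WT 1. Detection above background was not assessed, and 1 member, Foxm1, lay below a mean of 6.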
